A study of Mus musculus with 30 samples.

Results

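The genes described here carry out cholesterol and fatty acid synthesis in the mouse hippocampus. They were chosen by name, as 35 enzymes, sterol sensors and sterol handling proteins, by a rule that uses no measured value, although earlier results of these data were known when the list was made. A row of the normalized count table was found for 34 of the 35 genes, out of 21412 genes in all, and Hmgcs1 was not analysed here. Sc4mol is the symbol in the annotation used for the gene now called Msmo1. The RNA came from male BALB/c mice on an AIN-93G based diet, with 5 mice in each of 6 groups and 1 library per mouse. Mice of the Ctr, LD and HD groups arrived at an age of 2 to 3 weeks, had 5 days of acclimatization and then 11 weeks on the diets, so they were no longer juvenile when the RNA was taken. Ctr mice received feed with cysteine but no added methylmercury (MeHg), and LD and HD mice received 0.28 mg and 5 mg MeHg per kg feed, bound to cysteine, over 11 weeks. The Se_Ctr, Se_LD and Se_HD mice carry the same dose names and were also given selenium as dietary selenium-methionine, in an amount not given in the sources used here. The labels do not number the mice, so the mouse numbers below only name the libraries within a group.

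Cells build cholesterol from acetyl-CoA through mevalonate, squalene and a series of sterols, and they build fatty acids from the same precursor through malonyl-CoA. The transcription factors Srebf2 and Srebf1 switch on both routes when sterols are low, Scap escorts them from the endoplasmic reticulum, and Insig1 and Insig2 hold them back when sterols are plentiful. Little cholesterol crosses the blood-brain barrier, so the brain makes its own, mostly for myelin and synapses, and sheds the surplus after hydroxylation by Cyp46a1 or stores it as esters made by Soat1.

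Sequences before the start sites are shown for 3 of these genes, because SREBP is known to act through such sites, and because Soat1 and Insig1 are the genes called in the comparisons of single groups below. RefSeq promoters of build GRCm38.p6, from 250 bases before to 50 after a start site, were matched to 28 of the 35 genes. The letters TCACNCCAC, a form of the sterol regulatory element, were searched on both strands and found in 1 of the 28 genes, Hmgcs1, and in 1.44% of all 27025 genes. The stretch around that match lies at chr13:119690194-119690242 on the plus strand, and the match begins 137 bases before the start site. The 250 bases before the start sites of Insig1 (chr5:28071162-28071411, plus strand) and Soat1 (chr1:156474329-156474578, minus strand) follow it. All are written 5′ to 3′ in the direction of the gene, and capitals mark the searched letters. These are the letters named above in Hmgcs1. In the other two they are the CCAAT box, the GC box with the letters GGGCGG, and the E-box with the letters CACGTG, each also as its reverse complement, and no matches overlapped.
Hmgcs1: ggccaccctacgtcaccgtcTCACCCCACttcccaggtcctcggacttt
Insig1: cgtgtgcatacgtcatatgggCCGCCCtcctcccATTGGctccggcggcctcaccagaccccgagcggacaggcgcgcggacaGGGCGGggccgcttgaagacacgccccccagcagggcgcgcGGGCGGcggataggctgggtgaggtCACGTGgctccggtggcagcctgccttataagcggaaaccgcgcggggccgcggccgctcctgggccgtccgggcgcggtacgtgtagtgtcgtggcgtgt
Soat1: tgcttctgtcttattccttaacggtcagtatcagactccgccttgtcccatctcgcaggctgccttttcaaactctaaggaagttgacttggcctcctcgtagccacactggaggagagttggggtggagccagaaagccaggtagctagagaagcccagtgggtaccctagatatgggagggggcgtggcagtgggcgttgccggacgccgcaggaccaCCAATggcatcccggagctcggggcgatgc
The Insig1 stretch held the GC box 3 times and the CCAAT box and the E-box once each, and the Soat1 stretch held the CCAAT box once and neither of the others. Counted over every listed start site and all 300 bases, the CCAAT box was found in 23 of the 28 genes against 41.06% of all genes, the GC box in 24 of 28 against 38.2%, and the E-box in 5 of 28 against 8.09%. These counts describe letters and not bound sites.

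All values below are normalized counts, which are reads counted on a gene divided by a size factor for the library. Mean normalized counts over the 30 mice ranged from 25.9 for Idi1, an isomerase of the mevalonate route, to 11628.5 for Scd2, the main stearoyl-CoA desaturase of the brain. Per kb of exon, the only scale on which genes can be compared with each other, Scd2 stood highest with 2132.5. The other desaturases came next, with 531.4 for Fads2, 457.7 for Fads1 and 376.8 for Scd1, followed by 308.5 for Cyp46a1 and 245.3 for Srebf2. The lowest values were 24.2 for Acss2, which makes acetyl-CoA from acetate, and 9 for Idi1. Some values may include reads of other genes: 26.9% of the exon bases of Fdft1 also lie in exons of Ctsb on the opposite strand, 18.9% of those of Scap in 5830462I19Rik on the opposite strand and 15.3% of those of Tm7sf2 in 1110014N23Rik on the same strand. Scd1 and Scd2 are close relatives, and how reads that fit both were counted is not given in the sources used here.

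**Figure D1:**
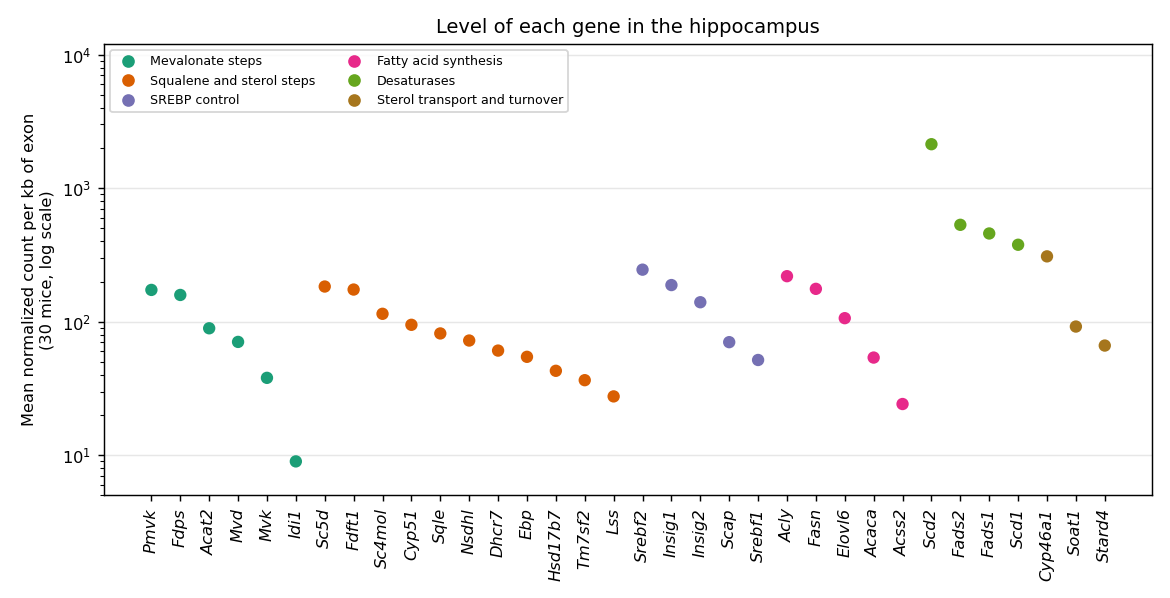
Mean normalized count per kb of exon over 30 mice for each of the 34 genes, on a log axis, coloured by role. Scd2 stands highest at 2132.5 and Idi1 lowest at 9, and 3 of the 4 highest genes besides Scd2 are desaturases.

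The libraries held between 5768208 and 11510521 reads on genes. Summed normalized counts stood apart in 3 libraries, Ctr mouse 2, LD mouse 2 and HD mouse 1, with 9595159 to 9814480 against 8269350 to 9179028 in the other 27. Markers of hippocampal neurons were present in every group. The sum of 7 choroid plexus markers ran from 313 to 37738 between mice, and HD mouse 2 had the lowest sum of 8 neuron markers of all mice, 63825, against 84789 to 99627 in the other HD mice. In bulk tissue, fewer cells of a type and less RNA per cell cannot be told apart.

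The first comparison asked which of these genes differed between HD and Ctr mice. Soat1, which esterifies cholesterol for storage, was up in HD mice, and it was the only one of the 34 genes called. A gene is called when a limma fit gives an unadjusted p under 0.05 both for the F test of the 3 groups and for its contrast with the control. That rule called 5.09% of all 20031 genes tested, 3.36% of all as higher, so that 1 call among 34 genes is not above the rate over all genes. With Benjamini-Hochberg adjustment over all genes, 0 of the 34 were below 0.05 with limma, edgeR or DESeq2, where limma put 0.13% of all genes below it, edgeR 45 of 20031 genes and DESeq2 196 of 19963. At an unadjusted contrast p under 0.05 limma gave 2 of the 34, where 8.34% of all genes passed. The exact permutation test put 3 of the 34 below 0.05, unadjusted, and 7.46% of all genes. The median log2 fold change of the 34 genes was 0.015, with 19 above 0, and over all genes tested the median was 0.007, with 51.2% above 0. Leaving out 1 mouse moved the median of the 34 to between -0.014 and 0.03. The 95% interval of the log2 fold change lay within 1.5-fold in either direction for 32 of the 34 genes, the exceptions being Soat1 and Idi1.

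**Figure D2:**
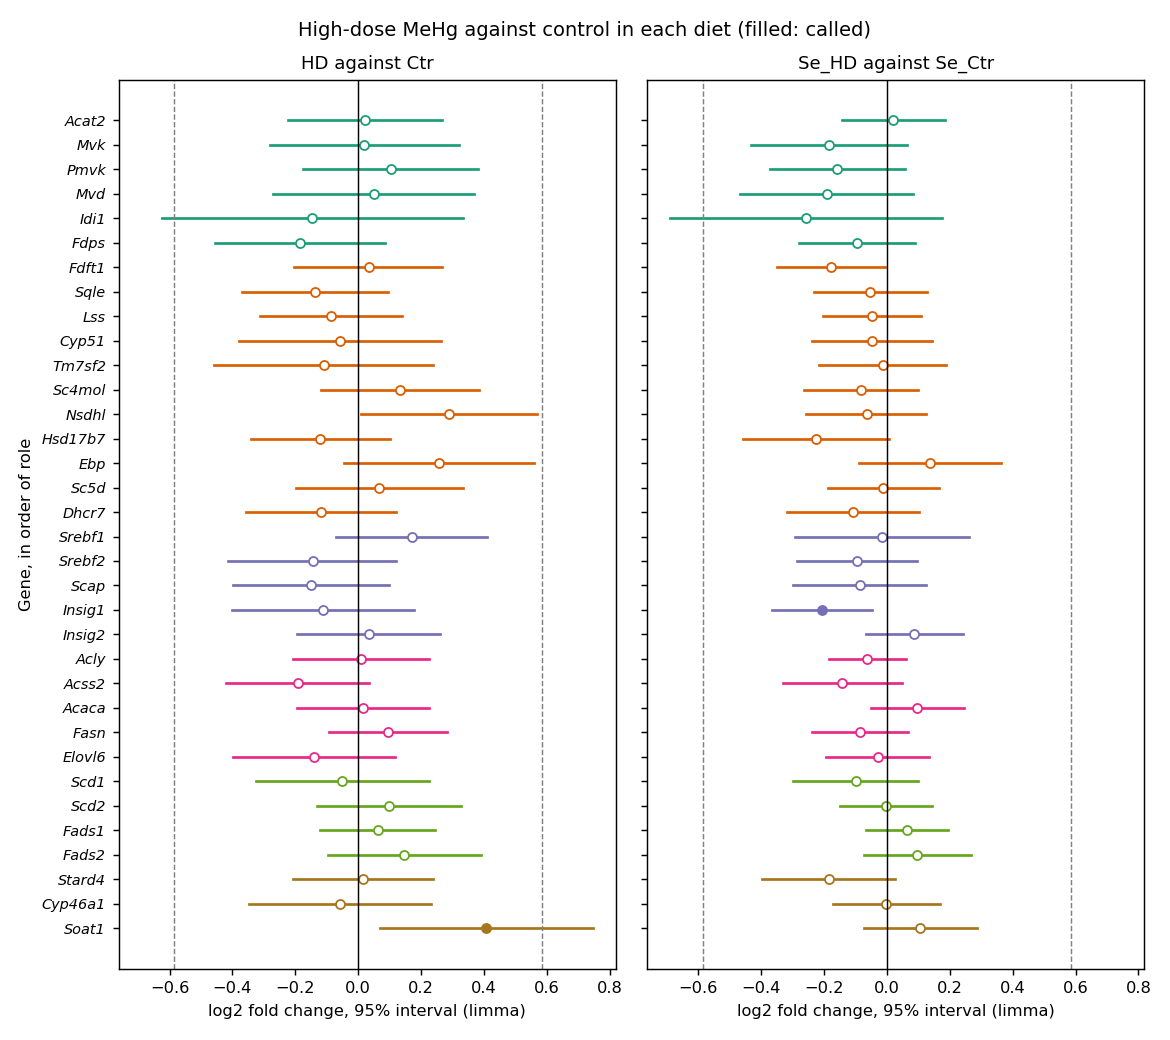
Log2 fold change with its 95% limma interval for each gene, HD against Ctr on the left and Se_HD against Se_Ctr on the right, with dashed lines at 1.5-fold. Filled points are called, Soat1 at 0.41 on the left and Insig1 at -0.21 on the right, and most intervals cross 0 and end inside the dashed lines.

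Soat1 (ENSMUSG00000026600, NCBIM37 chromosome 1, 158358239 to 158404459, minus strand) had normalized counts of 421.4, 450.9, 442.2, 436.1 and 381.1 in Ctr mice 1 to 5. In HD mice 1 to 5 it had 798.9, 586.8, 479.8, 483.8 and 529.9. Every HD mouse was thus above every Ctr mouse, which held for 1.76% of all genes compared for overlap in either direction. The limma log2 fold change was 0.41 (SE 0.16, 95% interval 0.07 to 0.75, Benjamini-Hochberg adjusted p = 0.468), or a ratio of geometric means of 1.33, and the exact two-sided permutation p was 0.00794, the smallest that 5 mice against 5 can give. HD mouse 1, the highest, is one of the 3 libraries with a high sum. Without it the limma log2 fold change was 0.28 and the call was lost. It was also lost without HD mouse 2, at 0.40, and with limma without trend, at 0.41, and in both the contrast passed but the F test did not. With all 3 high libraries left out, a setting chosen after seeing the data, the log2 fold change was 0.30 and Soat1 was called.

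LD mice 1 to 5 had Soat1 counts of 388.1, 678.6, 388.9, 315.4 and 408.2. Their mean of 435.8 ± 140.3 (SD, n = 5) lay near that of Ctr mice, 426.3 ± 27.5, and the log2 fold change was -0.02 (SE 0.16, exact permutation p = 0.96). LD mouse 2, another library with a high sum, stood above every Ctr mouse, while LD mouse 4 stood below every Ctr mouse. No step from Ctr through LD to HD can be read from these means beyond their spread.

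Markers of other cells moved with the HD group. All 10 of 10 microglia markers were called up in HD mice, and their sum ran from 2694 to 3025 in Ctr mice and from 3524 to 8857 in HD mice, with no marker at a mean under 1. Of 8 astrocyte markers 4 were called up, with sums of 49390 to 58826 in Ctr mice and 59595 to 92215 in HD mice. HD mouse 1, the highest in Soat1, had a microglia sum of 4201. Correlations over 30 mice were taken with the group means removed, which also removes the shift between HD and Ctr mice. Soat1 and the microglia sum had a Pearson r of 0.051 and a Spearman rho of 0.126. Soat1 and the astrocyte sum had 0.356 and 0.417. Over the other marker lists the Pearson r with Soat1 ran from -0.378 for endothelium to 0.414 for hippocampus. Markers of oligodendrocytes and myelin had a median log2 fold change of -0.136 in HD mice, with 10 of 11 below 0 and Mal called down, and their sum ran from 36485 to 48431 in Ctr mice and from 30835 to 48714 in HD mice. Of 8 neuron markers 6 lay below 0 and Gad1 was called down. All 7 choroid plexus markers lay above 0 and 0 were called, with sums of 802 to 31328 in Ctr mice and 7011 to 29604 in HD mice. The correlations above are descriptions over mice that also differ in depth and dissection, and the part of any of these cell types in the Soat1 result was not tested further.

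**Figure D3:**
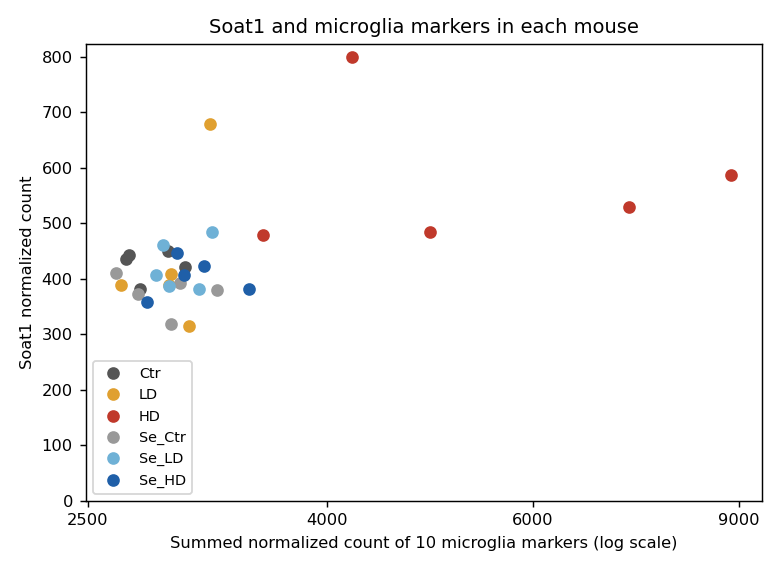
Soat1 normalized count in each of 30 mice against the summed normalized count of 10 microglia markers on a log axis, coloured by group. The 5 HD mice lie to the right of the Ctr mice, and the highest Soat1 value, 798.9, belongs to an HD mouse with a microglia sum of 4201.

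Among the 11 genes from squalene to cholesterol, 0 were called in HD mice, and 5 had a log2 fold change above 0 and 6 below. Nsdhl (chromosome X, 70163896 to 70203853, plus strand), a sterol dehydrogenase, came closest. Its counts were 171.5, 171.8, 166.3, 182.5 and 202 in Ctr mice and 219.2, 280.8, 174.5, 210.6 and 218.3 in HD mice. The 4 HD mice other than mouse 3 were above all Ctr mice. The limma log2 fold change was 0.29 (SE 0.14, Benjamini-Hochberg adjusted p = 0.58) and the exact permutation p for the pair was 0.0317. The contrast passed the unadjusted threshold but the F test of the 3 groups did not, and without HD mouse 3 both passed, at 0.37.

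Ebp (chromosome X, 7762455 to 7770638, minus strand), a sterol isomerase, had 123.2, 117.4, 115.3, 116.1 and 145.8 in Ctr mice and 193.7, 153.4, 129.1, 136.6 and 132.5 in HD mice. These groups overlapped, with 2 HD mice above all Ctr mice, and the limma log2 fold change was 0.26 (SE 0.14, exact permutation p = 0.0556). Sqle, the epoxidase that commits squalene to sterols, had 481.8, 432.2, 394.9, 463.1 and 520.4 in Ctr mice and 329.5, 478.3, 399.6, 449.3 and 434.9 in HD mice, a log2 fold change of -0.14 (SE 0.11). Cyp51, the lanosterol demethylase, had 542.2, 256.9, 394.9, 473.3 and 424.5 in Ctr mice and 363.2, 495.4, 328.9, 390.6 and 392.4 in HD mice, a log2 fold change of -0.06 (SE 0.15). Both HD ranges overlapped those of Ctr mice, and for Cyp51 Ctr mouse 2 was the lowest of all 30 mice. The remaining genes of these steps lay between -0.12 for Hsd17b7 and Dhcr7 and 0.13 for Sc4mol. In the mevalonate steps, 0 of 6 genes were called, and their log2 fold changes ran from -0.18 for Fdps, which makes farnesyl diphosphate, to 0.10 for Pmvk, a mevalonate route kinase.

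The 5 SREBP control genes gave 0 calls in HD mice. Srebf2, the main driver of sterol synthesis, had 1508.1, 842.2, 1285, 1299.2 and 1346.5 in Ctr mice and 1155.4, 927.2, 1053, 1220.8 and 1252.3 in HD mice. Its log2 fold change was -0.15 (SE 0.13, exact permutation p = 0.397). Without Ctr mouse 2, the lowest of the Ctr mice, it was -0.28, and without all 3 libraries of high sum it was -0.30, and under both Srebf2 was called down. The 4 other Ctr mice had counts above all 5 HD mice. Insig1 had 687, 415.2, 497, 423.7 and 521.7 in Ctr mice and 450.6, 495.4, 392.6, 517.6 and 468.3 in HD mice, which overlapped (log2 fold change -0.11, SE 0.14). For Srebf1, which favours fatty acid genes, the limma log2 fold change was 0.17 (SE 0.12, adjusted p = 0.768). In 4 of the 5 HD mice Srebf1 exceeded its highest Ctr value, and the exact permutation p for the pair was 0.0159. The log2 fold change was -0.15 for Scap and 0.033 for Insig2.

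Fatty acid synthesis and desaturation gave 0 calls among 5 and 4 genes in HD mice. Acss2 (chromosome 2, 155343684 to 155411460, plus strand) had the lowest log2 fold change of the 34 genes, -0.19 (SE 0.11, exact permutation p = 0.0873). Its counts were 269.3, 262, 231.5, 219.7 and 239.1 in Ctr mice and 181.6, 198.3, 244.3, 221.8 and 225 in HD mice, with 2 HD mice below all Ctr mice. Fasn, the fatty acid synthase, had 1503.3, 1630, 1690.3, 1516.7 and 1902.7 in Ctr mice and 1692, 1838, 1693.3, 1796.3 and 1762.2 in HD mice. The HD values lay inside the Ctr range, and the log2 fold change was 0.10 (SE 0.09). Scd1 had 2162.6, 1504.1, 1662, 2038.4 and 1703.2 in Ctr mice and 1772.7, 1583.4, 1550.2, 1865.4 and 1941.4 in HD mice (log2 fold change -0.05, SE 0.13). Scd2 had 11976.8, 10353.5, 10735.2, 11666.1 and 10764.1 in Ctr mice and 12161.7, 12449.7, 11482.5, 11943.7 and 11294.2 in HD mice (0.10, SE 0.11). Neither desaturase was separated by dose, and Fads1 and Fads2, which desaturate long-chain fatty acids, had log2 fold changes of 0.06 and 0.15.

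The other 2 sterol handling genes did not pass in HD mice either. Cyp46a1, the neuronal hydroxylase by which cholesterol leaves the brain, had 765.5, 507, 703.9, 626.5 and 679 in Ctr mice. In HD mice it had 660.4, 470.1, 617.7, 607.6 and 814.9, and the log2 fold change was -0.06 (SE 0.14). The lowest value of all 30 mice was that of HD mouse 2, the mouse with the lowest neuron marker sum. Stard4, a sterol carrier, had a log2 fold change of 0.015 (SE 0.11).

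**Figure D4:**
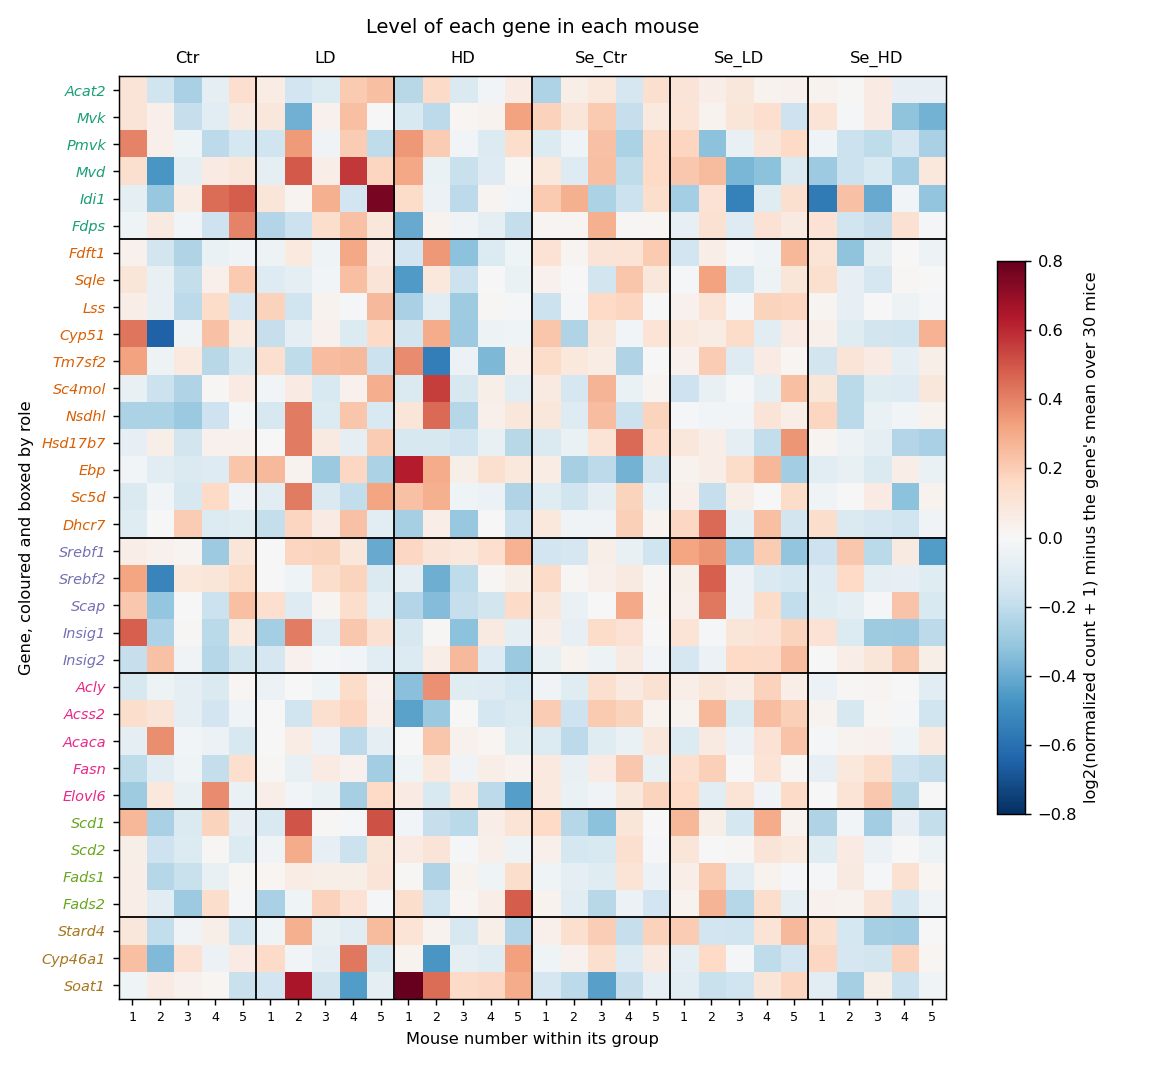
Each row is a gene and each column a mouse, and the colour gives log2(normalized count + 1) minus the mean of the gene over 30 mice, with values beyond the colour bar at its end colour. No group of columns is uniformly coloured for any role, while single cells stand out, such as Soat1 in HD mouse 1 at 798.9 and Cyp51 in Ctr mouse 2 at 256.9.

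At the low dose, 0 of the 34 genes were called in LD against Ctr mice, where 1.46% of all genes were, and at an unadjusted limma contrast p under 0.05 the count was also 0, where 3.01% of all genes passed. By the exact permutation test alone, unadjusted, 1 of the 34 was below 0.05, Fads1 with a log2 difference of 0.135 (p = 0.0317), where 2.82% of all genes were, so that the count is close to the rate over all genes. The log2 fold changes had a median of 0.054 and 29 of 34 lay above 0, against 51.1% of all genes. All 34 share the same Ctr mice, of which mouse 2 had the lowest mean over the genes, -0.113 on the log2 scale relative to the mean of all mice, so the 29 are not independent and were not tested as a set. Without LD mouse 4 the median was 0.019 with 23 above 0, and without the 3 libraries of high sum it was 0.03 with 22 above 0. Without Ctr mouse 2 it was 0.038 with 24 above 0, and without Ctr mouse 1 it was 0.079 with 28 above 0. Of the marker lists, 11 of 11 oligodendrocyte and myelin markers (median 0.046) and 7 of 7 choroid plexus markers (median 0.593) also lay above 0 and 4 of 4 erythrocyte markers below (median -0.61), with 0 called, and their part was not tested. The highest was 0.29 for Mvd, the mevalonate diphosphate decarboxylase (95% interval -0.03 to 0.61, exact permutation p = 0.143). Nsdhl followed with 0.25 (exact permutation p = 0.0556), from counts of 187.2, 273, 189.6, 238.3 and 187.9 in LD mice. The lowest was -0.07 for Acaca, the acetyl-CoA carboxylase. LD mice had Sqle counts of 420.5, 428.8, 444.4, 531.9 and 485.3, 4 of them inside the Ctr range. For Insig1 they had 407.9, 655.5, 465.1, 573.4 and 537.6, and for Scd1 1655.8, 2551, 1811.7, 1778.5 and 2568.6. LD mice 2 and 5 were the highest of all 30 in Scd1.

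In mice given selenium, Insig1 was the only gene of the 34 called in Se_HD against Se_Ctr, where 2.06% of all 19679 genes were called, 0.777% of all as lower. Insig1 (ENSMUSG00000045294, chromosome 5, 28397952 to 28405201, plus strand) had counts of 512.8, 471.1, 545, 535 and 494.8 in Se_Ctr mice. Se_HD mice had 535.2, 456.7, 404.2, 402.9 and 426.6. The 4 Se_HD mice other than mouse 1 were below all Se_Ctr mice, and the groups overlapped. The limma log2 fold change of Insig1 was -0.21 (SE 0.08, 95% interval -0.37 to -0.05, Benjamini-Hochberg adjusted p = 1), and the exact permutation p was 0.0556. The call held without any single mouse, at -0.28 to -0.17, and was lost in one fit over all 30 libraries, where the value was again -0.21. Fdft1, the squalene synthase, had -0.18 (exact permutation p = 0.0238), which passed the limma contrast but not the F test. These 2 genes are the only ones of the 34 past the contrast alone, which 4.19% of all genes passed, and Fdft1 is the only one past the exact test, which 4.78% passed. Of the 34 log2 fold changes 7 were above 0 and 27 below, with a median of -0.064, against 48.2% above 0 over all genes, and 5 of 6 mevalonate genes and 10 of 11 squalene and sterol genes lay below 0. This is a count over genes that share mice, and no single gene passed adjustment. The median was -0.105 without Se_Ctr mouse 2 and -0.041 without Se_Ctr mouse 3. Averaged over the genes, the level relative to the mean of all mice ran from -0.069 to -0.019 in Se_HD mice and from -0.058 to 0.043 in Se_Ctr mice, which overlapped. All 7 choroid plexus markers lay above 0 (median 0.718) with 0 called, and all 5 oligodendrocyte precursor markers (median 0.135) with Bmp4 called up. Of 8 neuron markers 6 lay below 0. Gfap of the astrocyte and Flt1 of the endothelium markers were called up, and 0 of 10 microglia markers were called. The part of these cell types was not tested.

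In Se_LD against Se_Ctr mice, 0 of the 34 were called against 1.46% of all genes, and 1, Ebp, had an unadjusted limma contrast p under 0.05, which 3.31% of all genes had (log2 fold change 0.23, exact permutation p = 0.111). By the exact test 0 of the 34 were below 0.05, and 3.41% of all genes. Of the 34 log2 fold changes 23 lay above 0, against 48.5% of all genes. So did 10 of 11 oligodendrocyte and myelin markers (median 0.174) and 8 of 8 astrocyte markers (median 0.056), with 0 called. All 7 choroid plexus markers lay below 0 (median -0.85), with 0 called. C1qa of the microglia markers was called down and Flt1 of the endothelium markers up. The part of these cell types was not tested. Ebp counts were 130.1, 103.7, 107.8, 95.9 and 112.5 in Se_Ctr mice and 127.3, 129.6, 138.4, 150 and 102.7 in Se_LD mice, and 2 Se_LD mice lay above all Se_Ctr mice. Soat1 had 406.2, 381.4, 386.2, 461 and 485 in Se_LD mice and 392.2, 372.6, 318.8, 379 and 411.2 in Se_Ctr mice, with overlap and a fold change of 0.18 on the log2 scale (exact permutation p = 0.119). Insig1 had 531.6, 490.1, 527.2, 534.2 and 557.2 in Se_LD mice, close to Se_Ctr mice. Over the 3 selenium groups the means ran from 447.7 to 467.2 for Sqle, 400.7 to 417.8 for Cyp51, 1187 to 1268 for Srebf2, 1691 to 1843 for Fasn, 1617 to 1943 for Scd1 and 625.9 to 659.8 for Cyp46a1, and none was called in either dose.

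The mice outside the called comparisons showed how far single values ran. Sqle had 462.5, 449.5, 407.9, 526.9 and 480.7 in Se_Ctr mice, 448.6, 562.9, 403.3, 438.1 and 483.2 in Se_LD mice, and 491.7, 430.3, 410.8, 454.1 and 451.3 in Se_HD mice. Cyp51 had 470.1, 340.6, 427.8, 397 and 434.4 in Se_Ctr mice, 424.2, 419, 445.5, 379 and 421.2 in Se_LD mice, 414, 376.8, 363.6, 360.8 and 488.3 in Se_HD mice and 353.6, 382.5, 411.8, 372.7 and 448 in LD mice. Neither gene separated any of these groups. Srebf2 had 1352.3, 1223.2, 1249.4, 1276.9 and 1222.9 in Se_Ctr mice, 1252.8, 1692.1, 1173.1, 1120.8 and 1103.4 in Se_LD mice, 1131.3, 1355.5, 1156, 1157.6 and 1134.9 in Se_HD mice and 1210.2, 1183.4, 1338.4, 1371.2 and 1120 in LD mice. Cyp46a1 had 634.3, 663.9, 709.1, 603.1 and 681.8 in Se_Ctr mice, 614.6, 724.3, 644.5, 563 and 583.2 in Se_LD mice, 727.3, 592, 585.5, 738.7 and 655.6 in Se_HD mice and 722.8, 640, 613.3, 871 and 593.6 in LD mice. Mouse 2 of Se_HD and of Se_LD was the highest of its group in Srebf2, and the highest Cyp46a1 value of all mice was that of LD mouse 4.

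Fasn had 1824.2, 1659.8, 1810.9, 2005.4 and 1661.4 in Se_Ctr mice, 1900.8, 1978.1, 1733.3, 1867.8 and 1737.5 in Se_LD mice, 1655.8, 1835.8, 1904, 1542.3 and 1516.5 in Se_HD mice and 1744.7, 1662.5, 1811.7, 1771.6 and 1424.9 in LD mice. Scd1 had 2015.1, 1540.5, 1433.4, 1928.3 and 1800.4 in Se_Ctr mice, 2168.9, 1857.7, 1633.1, 2217.3 and 1838.3 in Se_LD mice and 1524.7, 1773.2, 1488.4, 1723.2 and 1577.2 in Se_HD mice. Scd2 had 11914.8, 10509.3, 10667, 12674 and 11497.9 in Se_Ctr mice, 12412.9, 11570.1, 11668.8, 12434 and 12239 in Se_LD mice, 10824.6, 12130.6, 11222.5, 11579 and 11291.5 in Se_HD mice and 11399.4, 14247.5, 11070.8, 10294.3 and 12379.8 in LD mice. Groups overlapped throughout for the fatty acid enzyme and both desaturases, and LD mouse 2 was the highest of all mice in Scd2.

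Averaging the high dose effect over both diets, in one limma fit of all 30 libraries and 21383 genes with calls at an unadjusted contrast p under 0.05, gave 4 calls among the 34 genes, where 9.09% of all genes were called. Soat1 was up, with a log2 fold change of 0.26 (95% interval 0.06 to 0.45), and so was Ebp, with 0.20 (0.02 to 0.38). Hsd17b7, with -0.17 (-0.32 to -0.02), and Acss2, with -0.17 (-0.31 to -0.03), were down. Their Benjamini-Hochberg adjusted limma p-values ran from 0.346 for Soat1 to 0.487 for Ebp, and 0.21% of all genes were below 0.05. Over the 34 genes 13 lay above 0, against 50.3% of all genes. In the same contrast 10 of 10 microglia markers and 3 of 8 astrocyte markers were called up. Mal of the myelin markers and Gad1 of the neuron markers were called down. All 7 choroid plexus markers lay above 0 (median 1.187), with Prlr called up. The part of these cell types was not tested. Hsd17b7 (chromosome 1, 171879666 to 171899372, minus strand), a reductase late in sterol synthesis, had 207.7, 224.6, 196.5, 223.1 and 222.5 in Ctr mice and 199.1, 199.1, 194.5, 208.2 and 186.6 in HD mice. It had 200.4, 209.2, 234.4, 298.4 and 241.6 in Se_Ctr mice and 220.3, 211.5, 206.8, 184.4 and 181.8 in Se_HD mice. High dose mice were lower on average in both diets but overlapped the controls in both. Without Se_Ctr mouse 4, the highest, the averaged log2 fold change was -0.13, and the call was lost without that mouse and without Se_HD mouse 4 or 5. LD and Se_LD mice had 217.6, 289.7, 228.1, 206.6 and 250.1, and 231.1, 225.8, 205.6, 189.9 and 277.7.

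Acss2 had 281.1, 217.8, 282.5, 276.9 and 249 in Se_Ctr mice and 249.3, 223.3, 245.5, 242.4 and 218.9 in Se_HD mice, and those of Se_HD mice lay inside the Se_Ctr range. In LD mice it had 244.8, 218.9, 267.4, 274.8 and 251.4, and in Se_LD mice 249.1, 294.4, 225.4, 289.6 and 278.6. Ebp had 117.4, 119.8, 115.2, 129.8 and 120.1 in Se_HD mice and 149.6, 127.5, 101.5, 140.4 and 104.5 in LD mice. The averaged call for Ebp was lost without any one of 6 mice, which were Ctr mice 3 and 4, HD mouse 1, Se_Ctr mice 2 and 4 and Se_HD mouse 4, with the lowest value, 0.15, without HD mouse 1. Without the 3 libraries of high sum, Acss2 (-0.13) and Ebp (0.14) were no longer called, Insig1 and Srebf2 were, and the count stayed 4. Without HD mouse 2 the count was 7. The averaged low dose gave 0 calls, where 2.69% of all genes were called, with a median of 0.046 and 27 of 34 above 0, against 49.8% of all genes. In that contrast all 11 oligodendrocyte and myelin markers (median 0.138) and all 8 astrocyte markers (median 0.055) lay above 0 too, with 0 called, and their part was not tested.

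**Figure D5:**
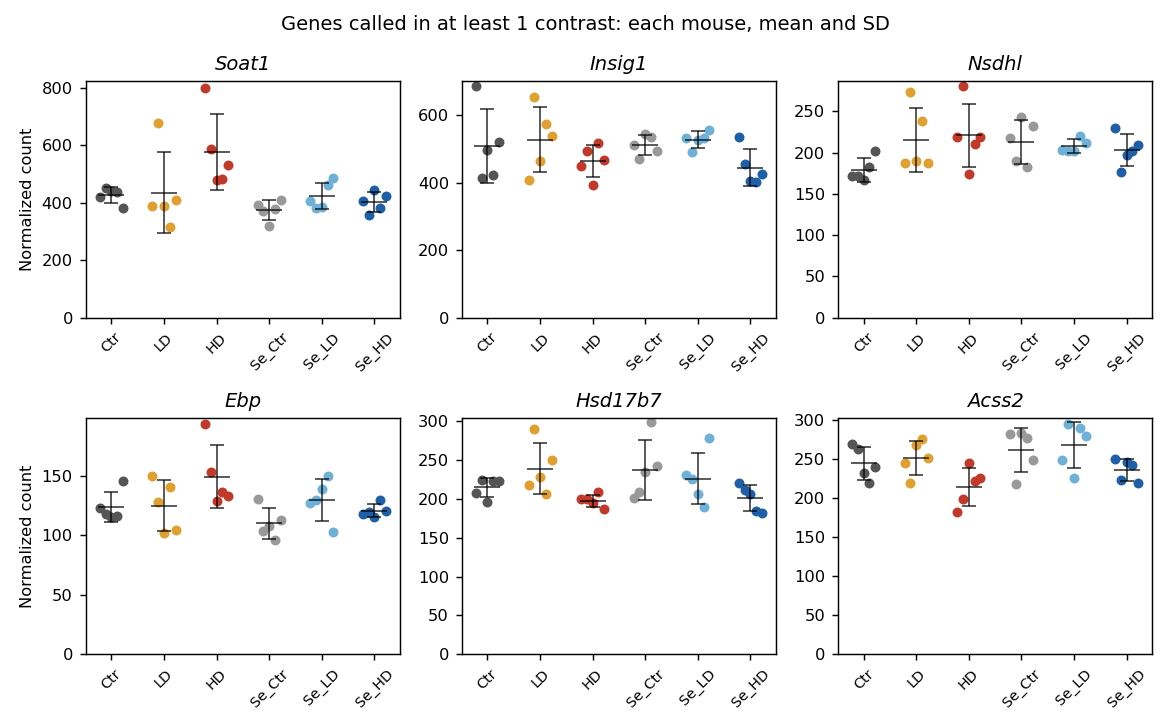
Normalized count of the 6 genes called in at least 1 contrast, in each of 5 mice per group, with the group mean and SD, on axes that start at 0. For Soat1 all 5 HD mice lie above all 5 Ctr mice and all 5 Se_HD mice, and for the other genes the control and exposed groups overlap.

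Selenium, averaged over the 3 doses, gave 1 call among the 34, Soat1, against 6.62% of all genes. The limma log2 difference of Soat1, selenium minus no selenium, was -0.22 (SE 0.08, 95% interval -0.39 to -0.06, Benjamini-Hochberg adjusted p = 0.675). Over the 34 genes 21 lay above 0, against 49.0% of all genes. Se_HD mice had 406.3, 358.6, 445.8, 382.4 and 423.2, so that every HD mouse was above every Se_HD mouse, a separation in either direction seen in 1.6% of all genes compared for it. The ratio of geometric means was 0.71 and the exact permutation p was 0.00794. The microglia sum also separated these groups, with 2810 to 3434 in Se_HD mice against 3524 to 8857 in HD mice, and so did the astrocyte sum, with 50394 to 52892 against 59595 to 92215. With averaged selenium 6 of 10 microglia markers, 4 of 8 astrocyte markers and 2 of 4 erythrocyte markers were called lower, and the part of these cell types was not tested. Se_Ctr mice were also lower than Ctr mice in Soat1 (log2 difference -0.19, exact permutation p = 0.0317), and Se_LD and LD mice differed by 0.004 (p = 1). Other genes also had an unadjusted exact p under 0.05 between the diets. Fdft1 was higher in Se_Ctr than in Ctr mice (log2 difference 0.20, exact permutation p = 0.0159), and Pmvk (-0.27) and Ebp (-0.29) were lower in Se_HD than in HD mice (exact permutation p = 0.0159 for each). With Soat1 that made 2 of the 34 for Se_Ctr with Ctr, where 4.44% of all genes passed, 3 for Se_HD with HD, where 7.33% passed, and 0 for Se_LD with LD, where 2.92% passed. In the pairs of groups other than HD with Ctr and Se_HD with HD, 0 of the 34 genes separated without overlap, against 0.399% of all genes for LD with Ctr, 0.511% for Se_LD with Se_Ctr, 0.815% for Se_HD with Se_Ctr, 0.761% for Se_Ctr with Ctr and 0.361% for Se_LD with LD. Leaving out the 3 libraries of high sum, which are all from the diet without selenium and include the highest HD and the highest LD mouse, brought the average to -0.12, which was still called.

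The effect of the high dose on Soat1 was 0.41 without and 0.11 with selenium, and the test of this difference gave -0.30 (95% interval -0.69 to 0.09, adjusted p = 0.997 with limma), so a difference between the diets was not shown. The test of selenium by high dose gave 1 call among the 34, Nsdhl, against 4.77% of all genes. For Nsdhl the high dose effect was lower with selenium, by a log2 difference of -0.35 (95% interval -0.68 to -0.03, limma with Benjamini-Hochberg adjusted p = 0.997). Over the 34 genes 14 lay above 0, against 48.0% of all genes. In the same test 9 of 10 microglia markers (median -0.993) and 3 of 8 astrocyte markers (median -0.341) were called lower. Gad1 of the neuron markers and Mal of the myelin markers were called higher. The part of these cell types was not tested. Nsdhl had 217.5, 190.2, 242.6, 181.9 and 231.7 in Se_Ctr mice, 203.1, 201.6, 201.7, 220.2 and 212 in Se_LD mice and 230.2, 176.1, 197.4, 201.5 and 208.8 in Se_HD mice. These overlapped throughout, and the Ctr mice were the lowest group, with 178.8 ± 14.3 (SD, n = 5) against 212.8 ± 26.1 in Se_Ctr mice. Without HD mouse 2, the highest, the difference was -0.26, and the call was lost without any one of 8 of the 30 mice. The test of selenium by low dose gave 0 calls, where 3.75% of all genes were called, and its lowest value was -0.40 for Mvd (95% interval -0.81 to 0.02). Here 10 of the 34 lay above 0, against 48.9% of all genes. All 7 choroid plexus markers lay below 0 (median -1.621) with 0 called. All 4 erythrocyte markers lay above 0 (median 0.836) with 2 called, Alas2 and Hbb-b1. Gpr17 of the oligodendrocyte precursor and Flt1 of the endothelium markers were called higher. The part of these cell types was not tested.

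Other genes of the pathway, 40 in all and not members of the list above, gave 5 calls in HD against Ctr mice, all up, where 3.36% of all genes were called up. These 40 were chosen with earlier results of these data known, so their counts cannot show an excess over all genes. Npc2, which moves cholesterol out of lysosomes, was up by 0.63 (SE 0.11, limma with Benjamini-Hochberg adjusted p = 0.0167). It ran from 437.2 to 539.7 in Ctr mice and from 596.7 to 884.7 in HD mice, with no overlap. Fabp5, a fatty acid carrier, was up by 0.52, Mlxipl, a carbohydrate responsive transcription factor, by 0.47, Gpam, the first acyltransferase of glycerolipid synthesis, by 0.42, and Me1, which supplies NADPH, by 0.32. None of these 4 passed adjustment, with limma adjusted p-values from 0.366 to 0.529. Mlxipl ran from 30.6 to 37.2 in Ctr mice and from 38.6 to 60.8 in HD mice, with no overlap. Fabp5, Gpam and Me1 overlapped between these groups. HD mouse 2, which had the highest microglia sum of all mice, 8857, was the highest in each, at 741.1, 1522.1 and 905.9. The same markers of microglia and astrocytes moved with the called genes, and the part of these cells was not tested. In LD mice, where 1.46% of all genes were called, 2 of the 40 were called, Elovl7, a fatty acid elongase, up by 0.63 and Rxra, a nuclear receptor partner, down by -0.33. Elovl7 ran from 122.8 in Ctr mouse 4 to 271.1 in Ctr mouse 5, whose choroid plexus marker sums were 2351 and 31328. Among LD mice Elovl7 was lowest in mouse 4, at 176, which had the lowest plexus sum of the group, 580. The part of choroid plexus in the Elovl7 call was not tested. In Se_HD mice 1 was called, Lpcat3, a phospholipid acyltransferase, down by -0.31, where 2.06% of all genes were called. In Se_LD mice 1 was called, Abcg1, a sterol exporter, up by 0.21, where 1.46% of all genes were called, so neither count stands clear of the rate over all genes. Over both diets, the averaged high dose gave 5 calls among the 40, all up, where 9.09% of all genes were called, and averaged selenium gave 3, all down, where 6.62% were. The test of selenium by high dose gave 4, all lower with selenium, where 4.77% of all genes were called. These were Fabp5, Gpam, Lpcat3 and Npc2, with -0.54 for Npc2 (limma, adjusted p = 0.546), and none passed adjustment. The medians over the 40 genes were 0.042 in HD, 0.013 in LD, 0.013 in Se_HD and -0.009 in Se_LD mice.

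With group means removed, the 33 genes whose mean normalized count was 100 or more varied together only weakly over the 30 mice. The median Pearson r over 528 pairs was 0.057 with 57.2% above 0, against -0.005 and 49.4% between these genes and the other genes of that level. The 6 pairs of desaturases had a median of 0.469, and the 120 pairs among genes of the mevalonate, squalene and sterol steps 0.092. Named for their size after the values were seen, the highest pairs were Scd1 and Scd2 (r 0.767, Spearman rho 0.784), Scap and Fads1 (0.762, rho 0.611) and Fdft1 and Sc4mol (0.754, rho 0.721), and the lowest was Srebf2 and Insig2 (-0.645, rho -0.628). Sqle had the highest median r with the others, 0.185, and Elovl6, a fatty acid elongase, the lowest, -0.192. All points share the depth and dissection of their mouse, and reads may be shared between the desaturases, so these values are descriptions.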

How the data were processed

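Hippocampus RNA of 30 mice was sequenced as single-end libraries made with a stranded mRNA kit. Per the study's methods and the submitters' processing notes, the authors trimmed reads with Trim Galore 0.4.2, aligned them with HISAT2 to build NCBIM37, counted them per Ensembl gene with featureCounts and removed features with under 10 reads in all. The strand setting of the counting is not given in the sources used here. The deposited values are a signal that the authors made by dividing counts by DESeq2 size factors. In every library 100% of the values were whole reads within 0.01, and the factors equalled those recomputed. All columns were used, 0 being left out.

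The members and gene lists were chosen with earlier results of these data known. Symbols, positions and exon lengths came from GENCODE vM1 of the same build, in which 21326 identifiers had a symbol, and promoters from RefSeq GRCm38.p6. After adding 1 and taking log2, values were fitted in limma 3.58.1 (trend on, R 4.3.3) over genes with a sum of at least 10, separately for the 15 libraries of each diet, and over all 30 for averaged effects and interactions. P-values were adjusted by Benjamini-Hochberg over all genes tested. They set a difference between groups against the spread between the mice within groups. Single genes were compared by exact two-sided permutation of 5 mice against 5. The 9 contrasts were run for every gene.

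Values of every mouse are given for genes called in any contrast, for the highest and lowest log2 fold change in HD mice, and for fixed representatives of each role (Sqle, Cyp51, Srebf2, Insig1, Fasn, Scd1, Scd2 and Cyp46a1). The settings changed one at a time were the pseudocount (0.1 or 10), the filter (mean 10 or more, or none), quantile normalization, size factors estimated within each fit, a covariate for runs of 6 library numbers, the trend (off), the tool (edgeR 4.0.16 or DESeq2 1.42.0, given recovered reads), the contrast alone, all 30 libraries in one fit, and leaving out each mouse. On recovered reads the call rule gave 1172 genes in HD mice with edgeR and 1091 with DESeq2, against 1019 with limma. Leaving out the 3 libraries of highest sum was added after seeing the data. Scripts were tested on simulated data, and used Python 3.11.15, pandas 2.3.3, scipy 1.17.1 and matplotlib 3.10.9. Proteomic data were not analysed here.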

Additional observations from a re-analysis of the deposited data

Results flagged for a closer look

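In 8 of the 204 groups of 5 mice tested (34 genes in 6 groups), 1 mouse lay far from the other 4. Its gap was over 0.71 of the group's whole range, both taken on log2(normalized count + 1), and about 10.2 such groups arise by chance. The counts below are not on the log2 scale, while the gaps beside them are. Fdps was highest in Se_Ctr mouse 3, at 236.8 against 195.3 to 197.5 (gap 0.942 of the range). Sc4mol was highest in HD mouse 2, at 1027.5 against 640.3 to 721.7 (0.747), and Ebp in Ctr mouse 5, at 145.8 against 115.3 to 123.2 (0.718). Sc5d was lowest in Se_HD mouse 4, at 338 against 416.2 to 443.9 (0.764), and Srebf1 in Ctr mouse 4, at 235.5 against 292 to 308.2 (0.799). Srebf2 was lowest in Ctr mouse 2, at 842.2 against 1285 to 1508.1 (0.725), and highest in Se_HD mouse 2, at 1355.5 against 1131.3 to 1157.6 (0.873). Acaca was highest in Ctr mouse 2, at 707.8 against 501.2 to 538.6 (0.792). Ctr mouse 2 is one of the 3 libraries whose summed normalized counts stood apart.

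For Nsdhl, limma's contrast of the high dose effect with against without selenium was -0.354 on the log2 scale (95% interval -0.682 to -0.026, Benjamini-Hochberg adjusted p = 0.997). Its unadjusted p was under 0.05, as for 4.77% of all genes, and no longer so without any one of 8 of the 30 mice, so a difference between the diets is not established.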

How the results depend on the processing

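The labels give no replicate numbers, but their library numbers form 5 sets of 6 that each hold 1 library of every group, and what a set shares is not stated. With the set as a block, the averaged high dose gave 5 calls, with Insig1 added, and the other 8 contrasts kept their counts. The count of called genes was 2 in HD mice with the contrast alone and in one fit of all 30 libraries (Nsdhl and Soat1) and without the 3 libraries of high sum (Soat1 and Srebf2), and 0 with limma without trend, where Soat1 was lost. It was 1 in LD mice in the fit of all 30 libraries (Nsdhl) and 1 in Se_LD mice with the contrast alone (Ebp). In Se_HD mice it was 2 with the contrast alone (Fdft1 and Insig1) and 0 in the fit of all 30 libraries. The averaged low dose gave 1 with a pseudocount of 10 and with DESeq2 (Fads1) and 1 with edgeR (Scd1). Averaged selenium gave 2 with edgeR and without the 3 libraries (Insig2 and Soat1), and selenium by low dose 1 without them (Soat1). These shifts are of 1 gene each, and the cause of each was not tested beyond the construction of the setting.

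Leaving out each mouse in turn, the counts ran from 0 to 2 in HD (0 without HD mouse 1 or 2, 2 without Ctr mouse 2 or HD mouse 3) and from 0 to 2 in Se_LD, from 2 to 7 for the averaged high dose (2 without Se_Ctr mouse 4 or Se_HD mouse 4, 7 without HD mouse 2), from 0 to 2 for the averaged low dose, from 1 to 3 for averaged selenium, from 0 to 2 for selenium by high dose and from 0 to 1 for selenium by low dose. They stayed 0 in LD and 1 in Se_HD. The HD log2 fold change of 13 of the 34 genes, none of them called and all between -0.112 and 0.049 with every mouse, changed sign without at least 1 mouse. Among those shown by mouse, Cyp51 ran from -0.222 to 0.047, Insig1 from -0.179 to 0.002, Scd1 from -0.115 to 0.016 and Cyp46a1 from -0.154 to 0.044. Soat1 in HD ran from 0.28 to 0.47. With 5 mice a group, the 95% intervals leave changes of 1.5-fold possible for Idi1, the gene of lowest count, in both diets.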
